A study of Sus scrofa with 8 samples.

Results

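The libraries described here are the 2 heart libraries of highland Tibetan pigs (TH1 and TH2), set against the 6 other libraries of the series, 8 libraries in all. The groups are Tibetan pigs kept in the highland (TH), Tibetan pigs kept in the lowland (TL), Yorkshire pigs kept in the highland (YH) and Yorkshire pigs kept in the lowland (YL). All pigs were males of 6 months, and each library was made from the pooled hearts of 4 pigs. With 2 pools per group, every p-value below measures the spread between pools and not between animals. TH differs from TL by the place of rearing, from YH by breed and from YL by both, so a value found in TH alone cannot be assigned to breed or altitude. A gene was counted as separated where both TH values in FPKM (fragments per kilobase of transcript, scaled to the mapped fragments of each library) lie above, or both lie below, all 6 other values. Of 18975 genes listed, the 13674 genes with at least 10 scaled reads in at least 2 libraries were tested, and 2403 of them (17.6%) were separated.

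The heart is an endocrine organ as well as a pump. Its muscle cells release natriuretic peptides when the wall is stretched, and the ventricle, which makes little atrial natriuretic peptide in adults, makes more of it under load, together with other genes of the fetal heart. The adult heart draws most of its energy from fatty acids burned in mitochondria. Low oxygen acts on many cells through hypoxia-inducible factors, which raise the genes of glycolysis, iron handling and vessel growth. Loaded or injured hearts also lay down extracellular matrix, the protein network between cells, through fibroblasts and transforming growth factor beta (TGF-beta) signals.

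Some properties of the libraries bear on what follows. YL2 stands apart: the 14 kidney markers listed sum to 4733 FPKM in it against 25.9 to 41.5 in the other 7 libraries, and its correlation with the others across genes is 0.841 to 0.863 against 0.926 to 0.972 among the rest. The counts of genes above and below, and the number of calls, are therefore given over all genes with and without YL2. Counts of a gene list above and below are given so wherever leaving out YL2 changes them by 2 or more genes. Whether a single gene or a list member was called is stated with all 8 libraries. Within TH, genes of the mitochondrial genome hold 87.6% of the summed FPKM in TH1 and 79.2% in TH2, against 57.7% to 80.3% elsewhere. TH1 is the deepest library with 26722605 reads on genes and TH2 the shallowest with 15686819, and the 2 correlate at 0.956. The descriptions of YL1 and YL2 name the file of TL, and both were taken as YL by their titles and breed. The tissue label was checked against 9 ventricular muscle markers, whose summed FPKM is 44419 in TH1 and 26071 in TH2 against 17002 to 40972 in the others. *TNNI3*, cardiac troponin I, is at 16846 and 7360 FPKM in TH, and 0 of the 9 genes were separated in either direction (3 lay below without YL2).

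Both TH values lay above all 6 others for 1291 genes (9.44% of those tested) and below all 6 others for 1112 genes (8.13%). Most of these gaps are small. The median distance between the nearest TH library and the nearest other library is 0.17 in log2(FPKM + 1) for the higher genes and 0.12 for the lower genes. It exceeds 0.5 for 155 and 95 genes, 1 for 32 and 12 genes, and 2 for 8 and 2 genes. The same count for the other groups, each against its 6 counterparts, gives 1219 genes for TL, 1567 for YH and 1154 for YL, with 8 and 6, 5 and 1, and 5 and 2 genes at a gap over 1. With all libraries TH has the most separated genes and the most gaps over 1 of the 4 groups, a comparison of counts for which no test was made. Without YL2 the counts for TH rise to 1809 genes above (13.2%) and 1589 below (11.6%), and they include all of the 1291 and 1112. Those for TL rise to 1028 above and 830 below, and those for YH to 1461 and 1002. Gap sizes, scales, spans and chromosomes are given with all 8 libraries. The library nearest to TH among the higher genes was YH2 for 357 genes and YH1 for 48, so a single highland Yorkshire pool sets the margin more often than any other.

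**Figure D1:**
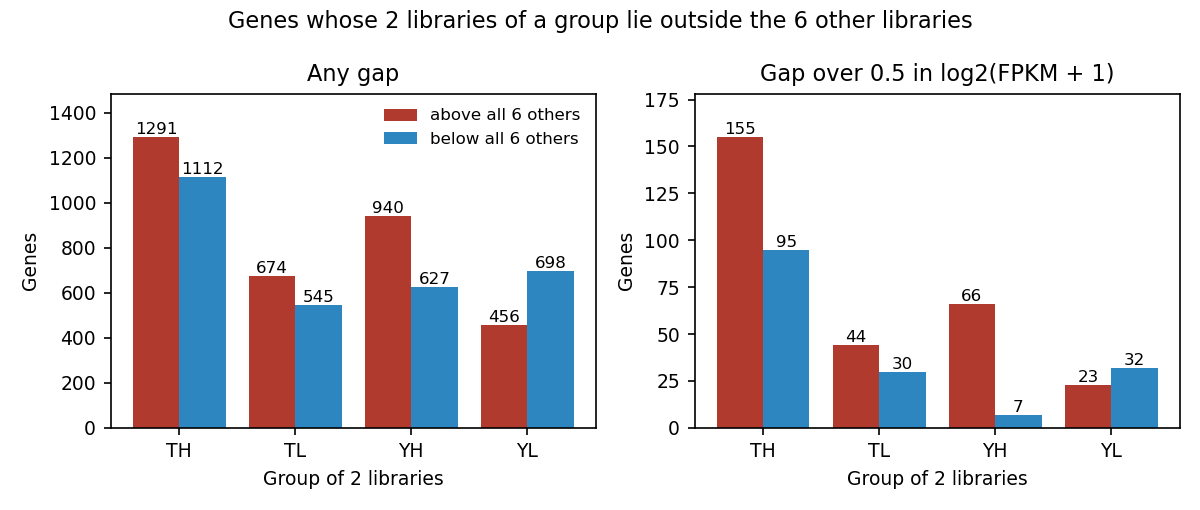
Number of genes whose 2 libraries of a group lie above (red) or below (blue) the 6 other libraries, at any gap (left) and at a gap over 0.5 in log2(FPKM + 1) (right), for the 4 groups. TH has 1291 and 1112 genes at any gap and 155 and 95 at the wider gap, more in each panel than TL, YH or YL.

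The balance of higher and lower genes depends on how libraries are scaled. Of the separated genes, 53.7% lie above the others on FPKM as deposited, 40.5% after median-ratio scaling, 58.2% when each library is scaled to its sum outside the mitochondrial genome and 54.1% on the deposited scaled reads. After median-ratio scaling, 997 genes (7.29%) lie above and 1463 (10.7%) below. On all 4 scales, 399 genes (2.92%) stay above and 247 (1.81%) below. Counts over gene lists below, with the share of the list in brackets, are to be read against these shares and against the 9.44% above and 8.13% below as deposited. The median log2 fold change of all genes tested is -0.04 as deposited, -0.13 after median-ratio scaling and -0.14 after scaling outside the mitochondrial genome, and the medians of gene lists below are to be read against these values.

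The test across all genes (limma, TH against the mean of TL, YH and YL on log2(FPKM + 1)) called 35 genes higher in TH (0.256% of those tested) and 14 lower (0.102%) where the adjusted p was under 0.05 and the groups differed by over 1 in log2. All 49 are also separated, 44 of them on all 4 scales, and 34 differ by more than 1 on the log2 scale from each of TL, YH and YL. At an unadjusted p under 0.05, 2326 genes pass. An exact permutation of 2 against 6 libraries cannot give a two-sided p under 0.0714. Each call therefore rests on the limma model, in which the variance of a gene is partly shared between genes. The counts are sensitive to single libraries. Without YL2, 162 genes are called higher and 136 lower, the 49 among them, and without YL1 282 and 408. In both cases the distance between YL1 and YL2 drops out of the spread. Without TH1 the calls are 3 and 0, without TH2 8 and 6, without TL1 or without TL2 3 and 0, without YH1 6 and 1 and without YH2 5 and 1. With a pseudocount of 0.1 in place of 1, *HAMP*, *VIM*, *TUBA1B*, *PINK1*, *TNNC2*, *MCM2*, *MCM4*, *MCM5*, *CDKN3*, *UBE2C*, *RCN3*, *CEL*, *CRABP2*, *CLCF1*, *CTHRC1* and *GXYLT2* lose the call, 16 genes at limma adjusted p from 0.0514 to 0.097.

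**Figure D2:**
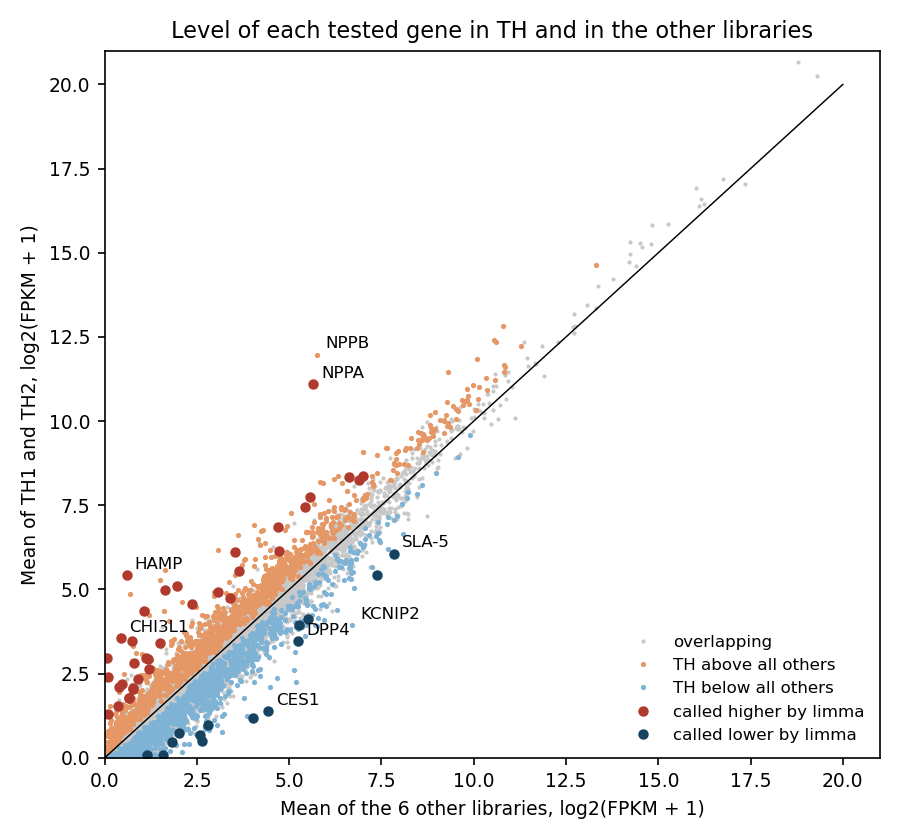
Each point is a tested gene, with the mean of the 6 other libraries on the horizontal axis and the mean of TH1 and TH2 on the vertical axis, both in log2(FPKM + 1), and the line marks equal levels. Orange and light blue points are separated genes, dark red and dark blue points the 35 and 14 genes called by limma, and *NPPA* and *NPPB* lie far above the line.

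The natriuretic peptide gene *NPPA* has the widest gap of all genes tested, 4.30, followed by *NPPB* and *HAMP* at 3.55 each. *NPPA* encodes atrial natriuretic peptide, a hormone that promotes salt loss and widens vessels. Its level was 2263 FPKM in TH1 and 2146 in TH2, against 53.1 and 108 for TL, 23.1 and 93.1 for YH and 23.3 and 46.3 for YL. The lowest TH value lies 4.30 log2 units above the highest other, and *NPPA* rose by 5.47 on the log2 scale (SE 0.56, limma adjusted p = 0.03). The difference is 4.84 against TL, 5.53 against YH and 6.02 against YL, 3 contrasts that share the TH libraries. *NPPB* encodes B-type natriuretic peptide, the related ventricular hormone. Its level was 4963 and 3264 FPKM in TH against 7.75 and 51.7 for TL, 16.1 and 180 for YH and 278 and 64.3 for YL. Both TH pools are far above the rest, but the other pools also spread widely. With all 8 libraries the difference of 6.21 (SE 1.08) did not pass the test (limma adjusted p = 0.0815). Without YL2 the difference is 5.86. Both genes lie on chromosome 6 of Sscrofa10.2, *NPPA* at 65830301 to 65830859 and *NPPB* at 65840060 to 65841530. The receptors of these peptides were slightly higher in TH and did not pass the test. *NPR1*, the signalling receptor, was at 11.2 and 13.6 FPKM against a median of 7.98, and *NPR3*, the clearance receptor, at 10.3 and 8.83 against 3.74 to 7.72. Neither is separated on all 4 scales, and *NPR1* is not separated after median-ratio scaling.

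Other genes that the heart turns on under stretch differed less. Of 15 genes in the natriuretic and stretch list, 6 (40%) lay above all other libraries and 0 below, 4 of the 6 on all scales, with a median log2 fold change of 0.97, and *NPPA* alone was called. Without YL2, 2 genes of the list lay below. *ACTA1*, skeletal actin of the fetal heart program, was at 30005 and 21387 FPKM against 5833, 10579 and 15576 (lowest, median and highest of the other libraries). *CSRP3*, a stretch-sensing protein of the Z-disc, was at 7832 and 3786 against 806, 1383 and 3689, so that TH2 barely clears the highest other library. *MYOZ2*, another Z-disc protein, was at 5628 and 4130 against 1036, 2933 and 3417, but on scaled reads YL1 exceeds TH2. None of the 3 passed the test. *ATF3* was not separated, with 38.8 and 50 FPKM in TH and 144 and 180 in TL.

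*NPPA* is also a marker of the atrium, and the labels do not say which part of the heart was taken. Of 11 atrial markers, 3 (27.3%) lay above all other libraries and 0 below, on all 4 scales, with a median log2 fold change of 0.32, and without YL2 4 lay above and 2 below. Besides *NPPA* they are *MYL7*, the atrial light chain of myosin, at 4283 and 3207 FPKM against 337, 1174 and 2578, and *SLN*. *SLN* encodes sarcolipin, an inhibitor of the calcium pump of muscle. It was at 56.5 and 16.3 FPKM against 0.812, 2.22 and 3.52 and rose by 3.36 (SE 0.44, limma adjusted p = 0.0452). The other 8 atrial markers overlapped. Among those chosen after their values were seen, the atrial myosin *MYH6* was at 20.6 and 18.4 FPKM against 2.60 to 246, *MYL4* at 7.59 and 6.73 against 2.09 to 21.4, *KCNJ3* at 14.7 and 9.88 against 5.71 to 17.8, and *NR2F2* at 5.49 and 6.74 against 3.5 to 14.4. Summed over the list, the level is 6676 and 5435 FPKM in TH against 442 to 2736, and 1 marker is listed at 0 in both TH libraries. Nearly all of this sum comes from *NPPA*, *MYL7* and *SLN*. Without these 3, the sum is 72.9 and 65.3 FPKM in TH against 55.5 in YL2 and 131 to 293 in the other 5 libraries. The part of atrial tissue in these results was not tested. In bulk tissue, more or fewer cells of a type and more or less RNA per cell cannot be told apart.

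Several other genes with wide gaps encode secreted proteins. *HAMP* encodes hepcidin, the hormone that limits iron release into blood. It was at 35.2 and 50.3 FPKM in TH against 0 and 0.432 for TL, 0.116 and 2.09 for YH and 1.04 and 0.167 for YL, a gap of 3.55, and it rose by 4.84 (SE 0.43, limma adjusted p = 0.022). With a pseudocount of 0.1 the difference is 6.57 and is not called (limma adjusted p = 0.0656). The value rests on 249 and 354 reads in TH against at most 22 elsewhere. *CHI3L1*, a chitinase-like glycoprotein of inflamed and remodeled tissue, and *CRTAC1*, a matrix protein of cartilage, had the lowest adjusted p of all genes (limma adjusted p = 0.00184 and 0.000893), with log2 fold changes of 3.11 (SE 0.15) and 2.91 (SE 0.12). *CHI3L1* was at 11.3 and 10.1 FPKM against at most 0.762, and *CRTAC1* at 7.02 and 6.74 against at most 0.129. A second gene model named *CRTAC1*, on chromosome 14 rather than on a scaffold, also rose, from at most 0.205 FPKM to 2.77 and 6.46. *CCDC3*, a secreted coiled-coil protein, was at 25.5 and 43.3 FPKM against 1.68, 2.98 and 4.39 and rose by 3.13 (SE 0.27, limma adjusted p = 0.022). *SPAG11*, a defensin-like peptide known from the epididymis, rose by 3.29, from at most 2.35 FPKM to 24.4 and 15.5. In each of these genes both TH pools lie several times above every other pool. The list of secretory leukocyte and chitinase-like genes, to which *CRTAC1* and *CHI3L1* belong, has 4 of 11 gene models (36.4%) above (6 without YL2) and 1 below. Its median log2 fold change is 1.04. Both models of *CRTAC1* are counted among the 4, and the list was chosen with results of these data known.

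**Figure D3:**
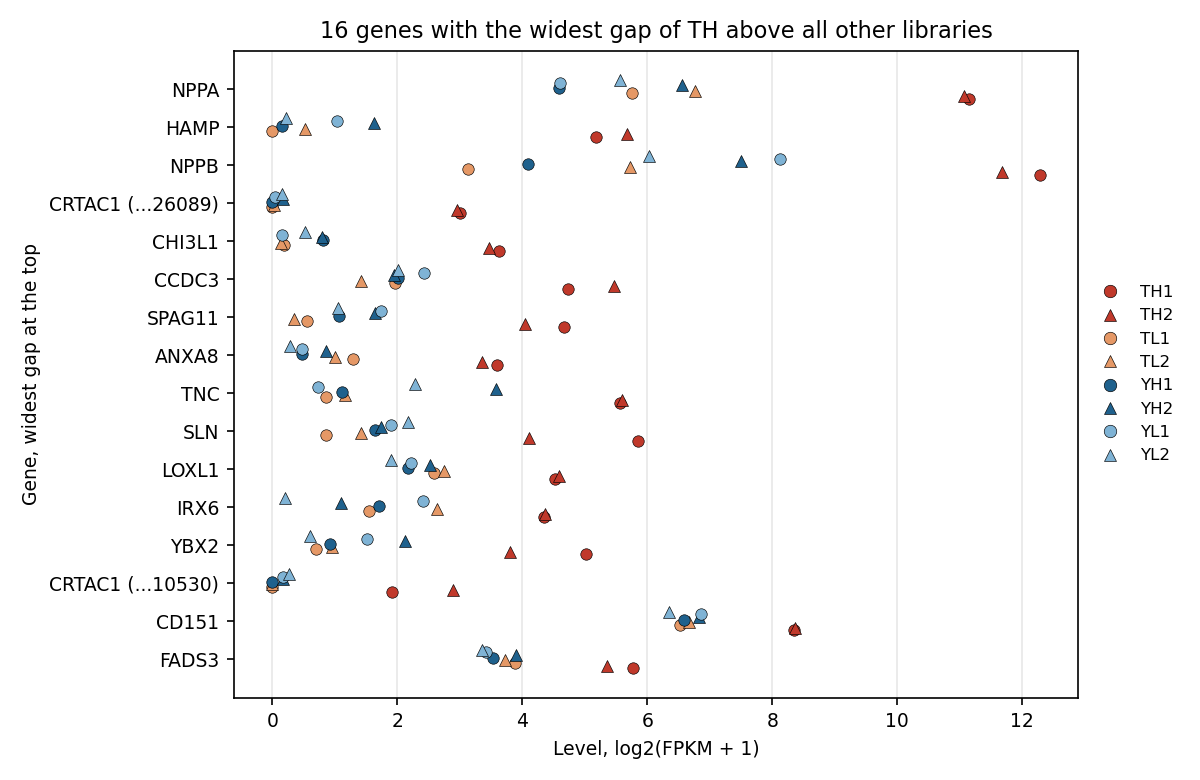
Level in log2(FPKM + 1) of the 16 genes with the widest gap above the other libraries, with 1 symbol per library and the 2 libraries of TH in dark red. In every row both TH symbols lie to the right of the other 6, from a gap of 4.30 for *NPPA* to 1.46 for *FADS3*.

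Annexins and S100 proteins bind calcium, and annexins also bind membranes. *ANXA8*, a calcium-dependent membrane-binding annexin, was at 11.1 and 9.24 FPKM against 0.224, 0.606 and 1.46 and rose by 2.74 (SE 0.19, limma adjusted p = 0.0101). *ANXA2*, its abundant relative, was at 355 and 275 FPKM against 52.7, 73.5 and 123 (limma adjusted p = 0.0559). Of 9 annexins, 3 (33.3%) lay above all others and 0 below, on all 4 scales, and the list median of 0.16 is 0.01 and 0 under the other scalings and 0.30 without TH1. *S100A10*, which binds annexin A2 in a complex, was at 408 and 202 FPKM against 60.5, 72.9 and 135. Of 12 S100 gene models, 5 (41.7%) lay above and 0 below (median log2 fold change 0.74), 2 of them on all scales, and none was called. Without YL2 these counts are 7 and 1. *CD151*, a tetraspanin that organizes integrins, was at 324 and 329 FPKM against 80.8, 97.5 and 115 and rose by 1.72 (SE 0.19, limma adjusted p = 0.0318). Among 22 integrins and tetraspanins 4 (18.2%) lay above and 1 (4.55%) below, and without YL2 7 and 2. The median of 0.13 is 0 after median-ratio scaling, -0.02 after scaling outside the mitochondrial genome, 0.35 without TH1 and -0.02 without TH2.

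In the lists of matrix glycoproteins and of collagens, *LOXL1* and *BGN* were called. *TNC* encodes tenascin-C, a matrix glycoprotein of developing and injured tissue. Its gene model on chromosome 1 at 286604310 to 286608866 was at 46.5 and 47.5 FPKM in TH against 0.808 and 1.23 for TL, 1.17 and 11 for YH and 0.665 and 3.85 for YL. With all 8 libraries this model did not pass the test (log2 fold change 3.96, SE 0.67, limma adjusted p = 0.0761). Without YL2 its log2 fold change is 4.22. A second model named *TNC* was at 0.764 and 16 FPKM in TH and overlapped. *LOXL1*, which crosslinks elastin, was at 22.0 and 23.0 FPKM against 2.73, 4.20 and 5.71 and rose by 2.20 (SE 0.19, limma adjusted p = 0.022). *BGN*, the proteoglycan biglycan, rose by 2.18 (SE 0.28, limma adjusted p = 0.0433), from at most 73.6 FPKM to 258 and 178. *TIMP1*, an inhibitor of matrix proteases, was at 150 and 77.8 FPKM against 8.42, 18.9 and 41.0 without passing the test. Of 25 matrix glycoprotein and remodeling genes, 5 (20%) lay above (7 without YL2) and 0 below, 4 on all scales. The median of 0.38 is 1.22 without TH1 and 0.09 without TH2. Of 19 collagen gene models 1 (5.26%) lay above (*COL4A2*, 114 and 131 FPKM against 45.3 to 104, overlapping on scaled reads) and 0 below. The collagen median of 0.39 is 1.14 without TH1 and -0.43 without TH2, and that of the 13 fibroblast markers, 0.00, is 1.09 without TH1 and -0.73 without TH2. The TH pools disagree here: *COL3A1* was at 18.2 FPKM in TH1 and 172 in TH2, against 36.8 to 213 in the others, and the fibroblast markers sum to 315 and 984 FPKM against 345 to 1095.

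Genes of the TGF-beta and CCN families, which act on fibroblasts and matrix, had 6 of 18 members (33.3%) above and 1 (5.56%) below, with a median of 0.36 that is 0.49 without TH1 and 0.23 without TH2. *CYR61*, a matricellular CCN protein, was at 178 and 170 FPKM in TH against 95.9 and 65.3 for TL, 30.6 and 43.9 for YH and 28.1 and 23.0 for YL, and rose by 2.03 (SE 0.23, limma adjusted p = 0.0318). Its relative *CTGF* was at 192 and 176 FPKM against 81.2 and 151 in TL and 28.1 to 42.2 in the Yorkshire libraries (limma adjusted p = 0.0592). The ligand *TGFB2* was at 91.0 and 73.2 FPKM against 5.34, 21.2 and 56.8 (limma adjusted p = 0.103). In *CYR61* and *CTGF*, TL takes the second place, between TH and both Yorkshire groups.

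Cytoskeletal genes of non-muscle type were higher in TH for most of the list. Of 17 actin and thymosin cytoskeleton gene models, 13 (76.5%) lay above all other libraries and 0 below, 6 on all 4 scales, with a median log2 fold change of 1.03 that is 0.89 without TH1 and 1.22 without TH2. *PFN1*, the actin monomer binder profilin, was at 756 and 454 FPKM against 177, 197 and 231 without passing the test. *TMSB10*, a thymosin that also binds actin monomers, was at 828 and 586 FPKM against 226, 370 and 531. Called genes of the list are *VIM*, the intermediate filament protein vimentin, at 324 and 337 FPKM against 89.4, 114 and 206, and the tubulin *TUBA1B*, at 308 and 296 FPKM against 92.3, 115 and 176. *ACTN1*, non-muscle alpha-actinin, rose by 1.35 (SE 0.17, limma adjusted p = 0.0426), from at most 12.6 FPKM to 24.3 and 27.3. By contrast, 1 of 18 sarcomere genes (5.56%) lay above and 0 below, and that one is *MYL7*. Without YL2, 5 sarcomere genes and 3 Z-disc genes lay below. The medians of the sarcomere list (0.09), the ventricular markers (0.07) and the Z-disc list (0.13) are 0 or lower under both other scalings. In the Z-disc list *PDLIM3* and *ACTN1* lay above. The sign of the sarcomere and ventricular medians depends on which TH pool is kept. Dropping TH1 turns the sarcomere median to -0.27 and the ventricular median to -0.33. Dropping TH2 instead raises the sarcomere median to 0.36 and the ventricular median to 0.32. *TNNC2*, troponin C of fast skeletal muscle, rose by 1.73 (SE 0.18, limma adjusted p = 0.03), from at most 0.785 FPKM to 3.24 and 3.41, whereas *MYL1*, a fast myosin light chain, lay below all others at 2.27 and 0.745 against 3.11 to 21.3. The 3 skeletal markers tested do not point one way, and 1 of the list is listed at 0 in both TH libraries. Smooth muscle and pericyte markers had 4 of 13 (30.8%) above and 0 below, led by *DES* (desmin, also abundant in heart muscle) at 9125 and 5761 FPKM against 920, 1713 and 3510. They sum to 9653 and 6299 FPKM in TH against 1096 to 3796, and most of that sum is *DES*. Without *DES* the sum is 528 and 538 FPKM in TH against 177 to 422.

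Small heat shock proteins protect muscle filaments, and 2 of 5 (40%) lay above and 0 below. *CRYAB* was at 6494 and 4239 FPKM against 717, 1471 and 3200, and *HSPB8* at 635 and 486 against 85.1, 280 and 471, where TH2 exceeds the next library by little. Neither passed the test. In the larger chaperone families (HSP70, HSP90 and DNAJ), 3 of 17 (17.6%) lay above and 0 below, none of the 3 on all scales, and the median of 0.12 turns to -0.02 under both other scalings.

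Among the gene lists, that of the cytosolic ribosome has the highest share above. Of 73 ribosomal protein gene models, 57 (78.1%) lay above all 6 other libraries and 0 below, against 9.44% and 8.13% of all genes. The count is 58 and 0 without YL2, 57 and 1 after median-ratio scaling, and 30 on all 4 scales. *RPLP1* was at 3612 and 2715 FPKM against 1555, 1853 and 2149, *RPS28* at 3585 and 2228 against 1595, 1838 and 1916, and *RPS12* at 3120 and 1948 against 1098, 1339 and 1434. TH1 is higher than TH2 in each, and the median log2 fold change of 0.80 is 0.42 without TH1 and 1.22 without TH2. The 6 other libraries lie within a narrow range, and no ribosomal protein gene passed the test. Ribosomal protein genes have many processed copies, so reads could be shared among them, and the authors' handling of such reads is not given in the sources used here. Of 24 translation factors, 8 (33.3%) lay above and 3 (12.5%) below (median 0.30, 0.18 without TH1 and 0.39 without TH2). *EIF5A* was at 378 and 226 FPKM against 142, 147 and 165, whereas the elongation factor *EEF2* was lower at 319 and 382 against 418, 512 and 565.

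A list of replication and cell cycle genes and a list of secretory pathway genes of the endoplasmic reticulum were added after values had been seen, and their counts are a description only. Of 26 replication and cell cycle gene models, 14 (53.8%) lay above and 0 below, 8 on all scales, with a median of 0.59. Of the MCM helicase, which opens DNA at replication origins, 4 subunits of the list were matched, *MCM2*, *MCM3*, *MCM4* and *MCM5*, and each lay above all others at a low level. *MCM4* was at 3.97 and 4.19 FPKM in TH against 1.85 and 1.88 for TL and 0.324 to 0.804 in the Yorkshire libraries, and rose by 1.43 (SE 0.16, limma adjusted p = 0.0322). *MCM5* and *MCM2* also rose, by 1.11 each. *CDKN3*, a phosphatase of the cell cycle, has 2 gene models, of which one rose by 1.92 (at least 9.16 FPKM in TH against at most 4.55). *UBE2C*, a ubiquitin-conjugating enzyme of mitosis, was called but its gap is 0.15, with 5.63 and 4.74 FPKM in TH and 2.58 and 4.17 in TL. Of 26 secretory pathway genes, 11 (42.3%) lay above (13 without YL2) and 1 (3.85%) below, and *RCN3*, a calcium-binding protein of the endoplasmic reticulum, rose by 1.85 (SE 0.25, limma adjusted p = 0.0491), from at most 11.3 FPKM to 34.4 and 25.2. *SSR4*, a subunit of the translocon-associated complex, was at 292 and 197 FPKM against 85.4, 93.0 and 105 (limma adjusted p = 0.0552).

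Immediate early genes, which respond within minutes to stress, stretch or tissue handling, were in part high in both Tibetan groups. *FOS* was at 53.8 and 85.5 FPKM in TH against 50.9 and 42.0 for TL, 3.4 and 5.91 for YH and 4.30 and 5.98 for YL. It rose by 2.56 (SE 0.27, limma adjusted p = 0.03), but the difference from TL is 0.54, against 3.64 from YH and 3.5 from YL, and its gap is 0.08. On the deposited scaled reads the order is not the same: *FOS* has 2581 and 4056 in TH, 10252 and 2013 in TL and 168 to 305 in the Yorkshire libraries, so that TL1 is the highest library and TH is not separated from TL. Fitted on scaled reads, the difference of 2.36 does not pass the test (limma adjusted p = 0.129). *EGR1* (51.1 and 65.5 FPKM) and *DUSP1* (172 and 232 FPKM) likewise clear TL by little, at 45.6 and 30.5 FPKM and at 155 and 115 FPKM. *JUNB* is different, with 51.1 and 53.6 FPKM in TH against 6.44, 13 and 22.0 in all others. Of 17 genes 7 (41.2%) lay above and 0 below (median 1.05), and 2 of the 7 hold on all scales. Per the study's methods the tissue was frozen in liquid nitrogen on collection, the interval between death and collection is not given in the sources used here, and the part of handling in these values was not tested.

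Of the remaining genes that rose, *FADS3*, of the fatty acid desaturase family, was at 53.4 and 40 FPKM against 9.19, 11.4 and 14 (log2 fold change 1.92, SE 0.19, limma adjusted p = 0.03). *GLRX*, the thiol-reducing enzyme glutaredoxin, was at 140 and 92.7 FPKM against 13.9, 27.1 and 40.3 (2.14, SE 0.24, limma adjusted p = 0.0318). The lipase *CEL*, the retinoic acid carrier *CRABP2*, the cytokine *CLCF1*, the secreted matrix regulator *CTHRC1*, the caveola protein *PRKCDBP*, and *C2ORF54*, *ZDHHC14*, *GXYLT2* and *TCEAL3* rose by 1.19 to 2.02. Of these, *TCEAL3* has a narrow gap of 0.29, because TL was at 0.826 and 1.36 FPKM while YH and YL were at 0 to 0.0449. Wide gaps without a call with all 8 libraries were found in the transcription factor *IRX6*, at 19.4 and 19.5 FPKM against 0.157, 2.1 and 5.22, and in the RNA-binding protein *YBX2*, at 31.3 and 12.9 FPKM against 0.520, 0.915 and 3.36. Their log2 fold changes are 2.75 and 3.27, and without YL2 2.39 and 3.12.

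Among genes lower in TH, *CES1*, a carboxylesterase that cleaves lipid esters and drugs, has the widest gap. It was at 1.24 and 2.01 FPKM in TH against 19.1 and 15.9 for TL, 13.9 and 32.0 for YH and 21.2 and 24.8 for YL, and fell by 3.04 (SE 0.32, limma adjusted p = 0.03). *KCNIP2* encodes KChIP2, the auxiliary subunit of the channels that carry the transient outward potassium current of heart muscle. It was at 15.2 and 13.5 FPKM in TH against 163 and 116 for TL, 119 and 78.4 for YH and 134 and 48.6 for YL. The 2 TH pools lie close together and far below the rest. The difference is -2.99 without YL2, and with all 8 libraries that of -2.75 (SE 0.39) missed the threshold (limma adjusted p = 0.052). Of 14 potassium and sodium channel genes it alone was separated with all libraries, and without YL2 3 lay below. *P2RY1*, a receptor for ADP, fell by 1.83 (SE 0.21, limma adjusted p = 0.0324), to 0.639 and 1.31 FPKM from at least 4.14. *PINK1*, a kinase that marks damaged mitochondria for removal, fell by 1.31 (SE 0.18, limma adjusted p = 0.0468), to 12.6 and 16.8 FPKM from 33.6 to 42.5. *FNDC1* fell by 1.26. *IGFBP5* (3.07 and 5.66 FPKM against 13.2, 23.2 and 70.7) and the peptidase *MME* (0.447 and 1.04 against 3.31, 4.28 and 160.5) had wide gaps without passing the test with all 8 libraries. In both YL2 holds the highest value. Their log2 fold changes are -2.29 and -2.39, and without YL2 -1.9 and -1.57. Another 2 genes called lower have no symbol.

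**Figure D4:**
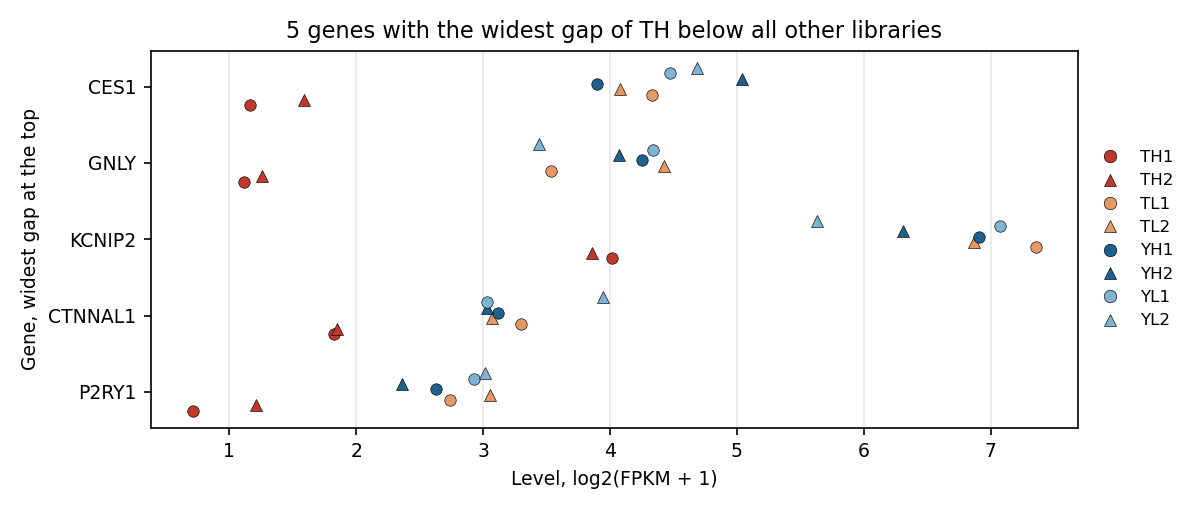
Level in log2(FPKM + 1) of the 5 genes with the widest gap below the other libraries, with 1 symbol per library and the 2 libraries of TH in dark red. Both TH symbols lie to the left of the other 6 in every row, with the widest gaps in *CES1* (2.31), *GNLY* (2.18) and *KCNIP2* (1.62).

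Mitochondrial enzymes were counted in several lists. Among 27 genes of the tricarboxylic acid cycle and of branched-chain amino acid breakdown, 8 (29.6%) lay below all others and 0 above, with a median log2 fold change of -0.43, against 8.13% of all genes below. Without YL2 19 lay below, and after median-ratio scaling 15, while 2 hold on all scales. *SDHC*, a subunit of succinate dehydrogenase, was at 92.6 and 81.2 FPKM against 151, 167 and 216. *BCKDHB*, a subunit of the branched-chain ketoacid dehydrogenase, was at 10.9 and 15.6 FPKM against 31.2, 37.9 and 42.0 (limma adjusted p = 0.0552). *PCCA*, which carries branched-chain products toward the cycle, was at 3.82 and 6.95 FPKM against 14, 17.7 and 22.2, also without a call. In each of these the groups do not overlap, and with all 8 libraries the single genes missed the threshold. Without YL2 the log2 fold changes of *SDHC*, *BCKDHB* and *PCCA* are -0.91, -1.37 and -1.55.

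Of 26 gene models of fatty acid oxidation, 7 (26.9%) lay below and 0 above, 2 on all scales, against 8.13% and 1.81% of all genes below. The median of -0.31 is -0.42 without TH1 and -0.10 without TH2. *DECR1*, needed to burn unsaturated fatty acids, was at 29.7 and 27.2 FPKM against 55.5, 69.4 and 79.8 (log2 fold change -1.25, SE 0.19, limma adjusted p = 0.0591). *ETFA*, which passes electrons from the oxidation to the respiratory chain, was at 69.7 and 102 FPKM against 147, 179 and 198, and *ACADM*, the medium-chain dehydrogenase, at 123 and 145 against 195, 231 and 266. The respiratory chain itself, counted over 45 genes of the nuclear genome, had 1 above and 3 below, a share below (6.67%) under that of all genes. Below are 9 without YL2 and 6 after median-ratio scaling, and the median of 0.12 is -0.03 after median-ratio scaling and -0.04 after scaling outside the mitochondrial genome. It is -0.29 without TH1 and 0.46 without TH2. None of the 17 mitochondrial genome genes tested was separated. Of 17 nuclear receptors and metabolic regulators 4 (23.5%) lay below and 0 above (median -0.36, -0.13 without TH1 and -0.51 without TH2), none on all scales, among them *PPARA*, a regulator of fatty acid oxidation, at 1.04 and 1.49 FPKM against 1.70, 2.44 and 4.62. No gene of these 4 lists was called with all 8 libraries.

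Immune cell markers were counted by class. Of 13 lymphocyte markers, 8 (61.5%) lay below all other libraries and 0 above, 6 on all scales, against 8.13% and 1.81% of all genes below, with a median log2 fold change of -0.73 that is -0.74 without TH1 and -0.74 without TH2. They sum to 9.57 and 9.84 FPKM in TH, against 14.5 and 20.3 for TL, 38.5 and 44.2 for YH and 17.1 and 18 for YL, and 1 marker is listed at 0 in both TH libraries. *CD2*, an adhesion receptor of T and natural killer cells, was at 0.491 and 0.276 FPKM in TH against 1.42 and 2.19 for TL, 4.18 and 4.82 for YH and 1.74 and 2.02 for YL, and fell by 1.36 (SE 0.18, limma adjusted p = 0.0468). *GNLY*, a granule protein of cytotoxic lymphocytes, fell by 2.82 (SE 0.32, limma adjusted p = 0.0318), to 1.17 and 1.39 FPKM from a median of 17. *KLRG1*, an inhibitory receptor of lymphocytes, and *IGLV-9*, a light chain segment of antibodies, fell by 1.06 and 2.12, on at most 3 reads in a TH library, so that these fitted values depend on the pseudocount. Macrophage and myeloid markers had 2 of 11 (18.2%) below and 0 above, namely the complement genes *C1QA* (4.49 and 13.1 FPKM against 22.9, 34.2 and 45.5) and *C1QC*, while 9 overlapped. Without YL2 4 lay below, and the median of -0.02 is 0.09 without TH1 and -0.24 without TH2. They sum to 48.3 and 71.7 FPKM in TH against 79.5 to 136.

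Of 20 interferon-stimulated gene models, 7 (35%) lay below (10 without YL2) and 0 above, 6 on all scales, while 13 overlapped, with a median of -0.87. *MX1*, an antiviral GTPase, was at 1.12 and 0.818 FPKM in TH against 3.29 and 9.14 for TL, 4.36 and 3.79 for YH and 50.7 and 4.41 for YL. A high value in YL1 widens the spread of several of these genes, and none of the list was called. *ISG12(A)*, another interferon-induced gene, fell by 1.96 (SE 0.26, limma adjusted p = 0.0468), to 38.1 and 45.7 FPKM from 67.6 to 132 in TL and YH and 491 and 474 for YL. Of 12 genes of the swine major histocompatibility complex (SLA) and antigen presentation, 4 (33.3%) lay below and 0 above (median -0.44), 1 on all scales, 8 overlapped, and *SLA-5* alone was called. *SLA-5*, a class I gene, was at 71.3 and 60.9 FPKM in TH against 133 and 125 for TL, 255 and 299 for YH and 351 and 304 for YL, and fell by 1.77 (SE 0.17, limma adjusted p = 0.03). Its difference is smallest against TL (-0.96), and SLA genes vary between breeds and share sequence, so reads could be shared among copies. *DPP4*, a peptidase found on T cells and endothelium, was likewise at 11.3 and 9.01 FPKM in TH against 16.5 and 20.3 for TL and 41.9 to 68.4 in the Yorkshire libraries, and fell by 1.77 (SE 0.19, limma adjusted p = 0.0312).

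The response to low oxygen was counted over lists of its pathway. Of 22 genes of the HIF-1 pathway and its induced genes, 1 lay above (*P4HA2*, a collagen prolyl hydroxylase, 29.2 and 31.3 FPKM against 13.2 to 26.1) and 1 below (*BNIP3*, a mitochondrial receptor for mitophagy, 69.6 and 43.3 FPKM against 73.4 to 111), shares of 4.55% each against 9.44% and 8.13% of all genes. The median of -0.09 is -0.06 without TH1 and -0.21 without TH2. After median-ratio scaling 0 lay above and 3 below, where the shares of all genes are 7.29% and 10.7%. Some members were chosen here after their values were seen. *HIF1A*, the oxygen-regulated subunit, was at 3.02 and 14.4 FPKM in TH against 6.11 to 12.1, so that the TH pools take the lowest and the highest place. *EPAS1*, which encodes HIF-2 alpha, was at 37.7 and 57.6 FPKM against 44.6 to 64.6, and *VEGFA*, the vessel growth factor, at 56.4 and 53.6 against 53.3 to 86.5. Of 15 angiogenic ligands and receptors 0 lay above and 1 (6.67%) below (*FGF1*, 15.3 and 18 FPKM against 21.2, 45.0 and 61.8). Of 25 glycolysis gene models 1 (4%) lay above and 2 (8%) below, 8 below without YL2. *PFKM*, the muscle phosphofructokinase, was at 82.1 and 120 FPKM against 125, 314 and 387. Renin-angiotensin and blood pressure genes had 2 of 14 (14.3%) above, the receptors *NPR1* and *NPR3*, and 1 (7.14%) below, *MME*. Neither receptor lay above on all scales.

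Of the 21 hypoxia candidates that the study chose on these same libraries, 11 (52.4%) lay above all others and 3 (14.3%) below, with a median of 1.31, which is not independent evidence of their direction. *NPPA*, *FOS* and *DPP4* were called. *FGF1* is given by the study as higher in TH than in YH, but here it was lower (log2 fold change -1.58 against YH). Of those not described above, *PDLIM3*, a Z-disc protein, was at 236 and 351 FPKM against 21.9, 57.7 and 210. Its gap is 0.17, and it is not separated after median-ratio scaling. *CD44*, a receptor for hyaluronan, was at 75.5 and 81.1 against 11.2, 16 and 42.6, and the hemoglobin gene *HBB* at 1708 and 876 against 290, 567 and 649. *HBA* was at 1376 and 745 FPKM with 754 in TL2, so its groups overlap by that library. Blood cell markers had 2 of 4 above and 0 below and sum to 3115 and 1635 FPKM in TH against 533 to 1409, and the amount of blood in the tissue was not tested. *A2M* (29.0 and 9.15 FPKM against 12.6 to 58.7), *AGT* (53.1 and 41.7 against 27.7 to 94.3), *EGLN3* (35.2 and 29.2 against 34.5 to 81.2), *CCL5* (28.2 and 13.6 against 24.4 to 46.4) and *COL3A1* overlapped.

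The counts of the remaining lists stand against 9.44% above and 8.13% below over all genes, or 13.2% and 11.6% without YL2. Conduction system markers had 0 of 8 above and 3 below (37.5%), and 2 of the 3 are models of *IGFBP5*. Ubiquitin ligase and proteolysis genes had 1 of 17 above and 3 below (17.6%), with 8 below without YL2 and 5 after median-ratio scaling. Antioxidant and redox genes had 3 of 23 above and 4 below, 6 and 5 without YL2. Complement and coagulation genes had 3 of 26 above and 4 below, 4 and 6 without YL2. Insulin, AKT and mTOR genes had 2 of 26 above and 3 below, 3 and 5 without YL2. Circadian clock genes had 0 of 18 above and 1 below, 1 and 3 without YL2. Calcium cycling genes had 1 of 18 above (*SLN*) and 0 below, 2 and 4 without YL2. Endothelial markers had 2 of 10 above (20%) and 0 below, of which *PECAM1* was at 96.8 and 84.5 FPKM against 35.7 to 81.9 and overlaps on scaled reads, and sum to 233 and 249 FPKM in TH against 141 to 233. Nerve and Schwann cell markers had 1 of 5 above, adipocyte markers 1 of 5 below, and mesothelium (7), cartilage and valve (5) and kidney (5) markers had 0 in either direction.

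**Figure D5:**
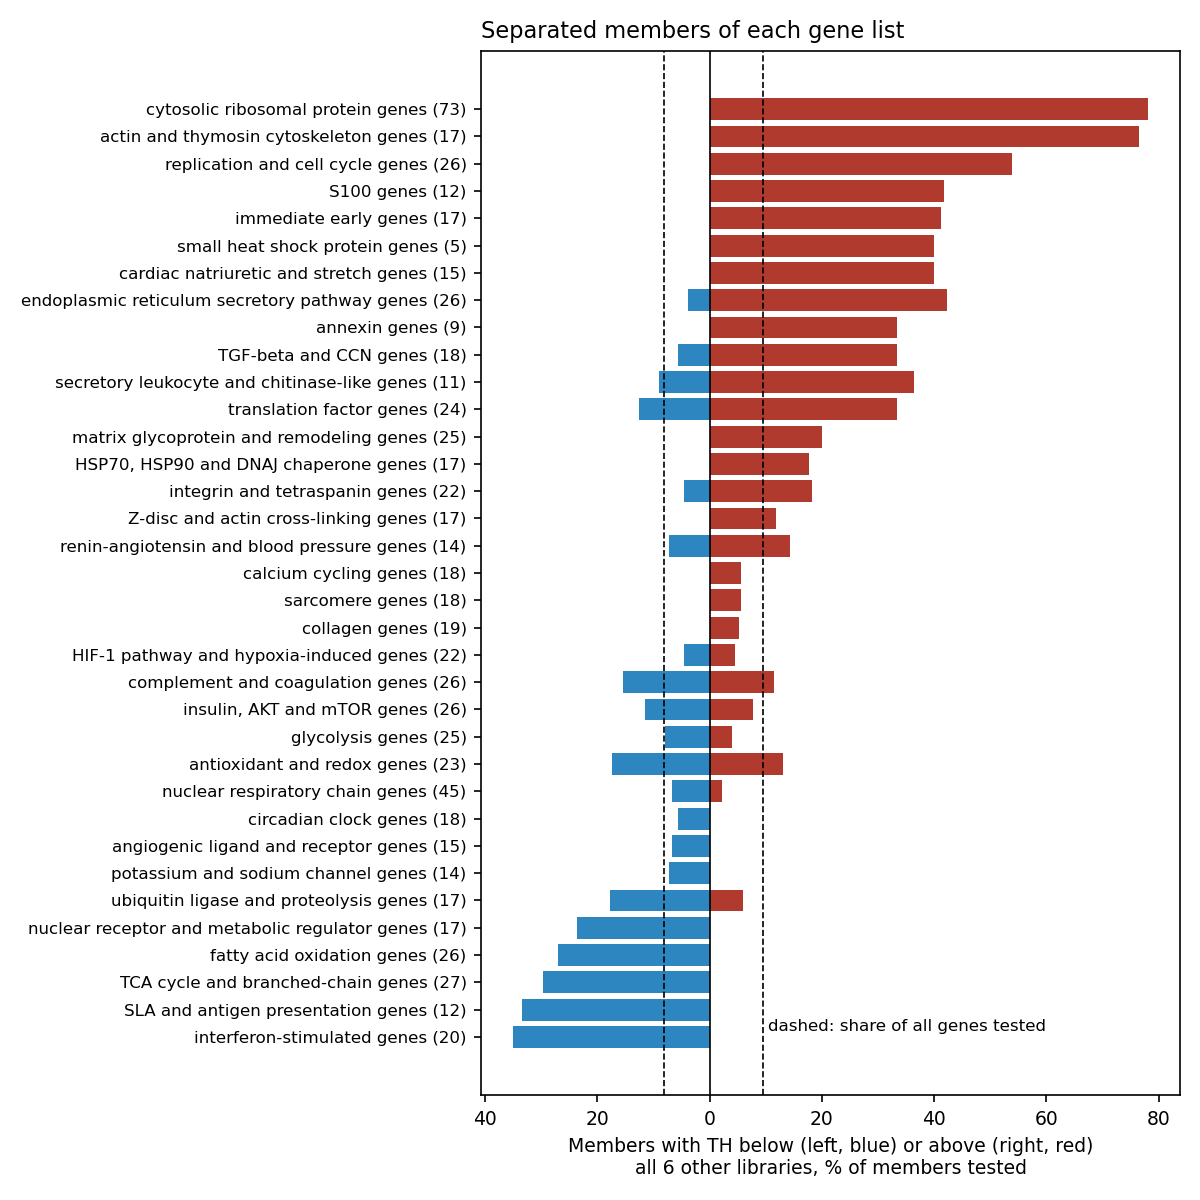
For each gene list other than cell type markers and study candidates (members tested in brackets), the percentage of members whose 2 TH values lie above (red, right) or below (blue, left) all 6 other libraries, with dashed lines at the 9.44% and 8.13% of all genes tested. Of the lists drawn, ribosomal protein genes have the highest share above (78.1%) and interferon-stimulated genes the highest share below (35%).

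Set against the groups one by one in the same fit, TH had 2 genes higher and 0 lower than TL, 19 and 14 against YH, and 34 and 8 against YL, at the same threshold. The 3 comparisons share the TH libraries and are given side by side only. The 2 genes called against TL are *CRTAC1* and *CHI3L1*, with log2 fold changes of 2.96 and 3.39.

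The span of a gene on the genome did not enter the rule. Genes above the others span a median of 12642 bases of Sscrofa10.2, against 22914 for genes below and 21210 for all tested. In 4 classes of equal size, from short to long span, 13%, 11.6%, 6.85% and 6.23% of genes lay above, while the share below stayed between 7.52% and 9.27%. By chromosome, the share above is highest on 17 (13.4%) and 2 (13%), and the share below is highest on 14 (11.1%). These shares are descriptions over genes that are not independent of each other, and no test was made of them.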

How the data were processed

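Heart RNA of 8 pools was sequenced by the study on a HiSeq instrument. The authors aligned reads to Sscrofa10.2 with TopHat2 2.0.9 and Bowtie 0.12.5, per their processing notes, and computed gene levels with Cufflinks. The deposited table holds, for each library, FPKM as computed by the authors and a signal that the authors named a count and scaled by 1 factor per library. Divided by the most frequent low value of its library, 99.7% to 99.9% of low values of this signal up to 30 reads are whole within 0.01, which gave the reads on genes, 15686819 to 26722605 per library. Because a few values are far below 1 read, no count model was fitted. Another 8 deposited columns hold group means and ratios and were not used. The deposited table names 14256 of the listed genes, 1025 more were named from gene records, and 3694 are known by ID only.

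Genes with at least 10 scaled reads in at least 2 libraries were kept. Separation and gap were computed on log2(FPKM + 1), so that fold changes of low genes are understated. With limma 3.58.1 in R 4.3.3, a mean per group was fitted to all 8 libraries with variances moderated along the mean level (2.76 prior and 4 residual degrees of freedom). The contrast was TH minus the mean of the other 3 groups, and p-values were adjusted by Benjamini-Hochberg over all 13674 genes. The fit was tested on simulated data, in which it recovered 72% of genes changed by 2 log2 units. Named genes were the 20 widest gaps in each direction, all called genes with a symbol, at most 4 separated members of a list by mean FPKM and the 21 candidates of the study, except where another choice is stated, and 1 such gene is not reported here. Members and gene lists were chosen with earlier results of these data known. No promoter or protein sequence was used here. Figures were drawn with matplotlib 3.10.9. Alternatives are given in the closing section.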

Additional observations from a re-analysis of the deposited data

How the results depend on the processing

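Among the genes named by rule, the sign of the log2 fold change was the same under every alternative except for *COL3A1* (-0.42), which ranged from -2.01 to 1.16. Counts moved more. Genes above and below all others, 1291 and 1112 as deposited, were 619 and 304 at a mean of at least 10 FPKM, 519 and 372 after scaling outside the mitochondrial genome, and 155 and 95 at a gap over 0.5, a limit chosen after seeing the data. Leaving out 1 library gave 1333 to 3435 above and 1196 to 3955 below, the highest without TH2 and then TH1 (2244 and 2116), where 1 TH value alone has to clear the others. The limma calls, 35 higher and 14 lower, were 23 higher with a pseudocount of 0.1, 14 and 4 without a filter, 21 higher at a mean of at least 10 FPKM, 22 higher after median-ratio scaling, 16 and 4 after scaling outside the mitochondrial genome, 17 and 9 on scaled reads, 19 and 7 without a trend, and 2 and 0 at an adjusted p under 0.01, also without YL2 (chosen after seeing the data). With 1 library left out they ranged from 3 to 282 higher and from 0 to 408 lower, and the lone library of that group is assumed to vary like the others. With a replicate block the calls were 5 and 0. The labels do not pair the libraries, and same-numbered libraries correlate at -0.124 to 0.174 in their deviations from the group means. The other causes of these shifts were not tested. A count model and promoter motifs were not run. At 15686819 to 26722605 reads per library, levels that rest on a few reads carry a large counting error.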
